A study of Mus musculus with 8 samples.

Results

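The genes described here are 8 receptors and surface or lysosomal markers of macrophages, chosen by name among the 25124 genes of the deposited expression table: Cd36, Msr1, Marco, Mrc1, Cd163, Stab1, Cd68 and Adgre1. Macrophages clear modified lipoproteins, bacteria, spent proteins and dying cells with scavenger receptors, and bind sugar-bearing ligands with lectin-type receptors such as the mannose receptor. Osteoclasts, the cells that resorb bone, form from the same precursors when macrophage colony-stimulating factor (M-CSF) is joined by RANKL, the ligand of the receptor RANK, and precursors are known to lose much of the macrophage surface program as they differentiate. Peroxiredoxin 1 (PRDX1) is an antioxidant enzyme inside cells that can act outside them as a danger signal through Toll-like receptor 4.

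The cells were osteoclast precursors grown from mouse bone marrow. By the sample labels the mice were C57BL/6 and aged 6 to 8 weeks. By the study's account of its precursor cultures they were ICR males aged 6 weeks. Non-adherent marrow cells, taken after 16 h with 5 ng/mL M-CSF, were expanded for 3 days with 30 ng/mL M-CSF, and all 4 groups then stayed in M-CSF for 48 h. The groups were no PRDX1 + no RANKL (neither agent), PRDX1 + no RANKL (PRDX1 alone, 200 nM), no PRDX1 + RANKL (RANKL alone, 100 ng/mL) and PRDX1 + RANKL (both), with 2 libraries each. PRDX1 was a His-tagged recombinant protein made in Escherichia coli and passed over an endotoxin removal resin. No source says whether the 2 libraries of a group came from separate cultures or mice, so p-values measure only the spread between these libraries, which may be technical.

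The libraries held 24542562 to 41712912 reads on genes. Levels are in FPKM, fragments scaled to transcript length and library size, so levels of different genes can be set side by side. The cells carried the macrophage identity that their labels state: Lyz2, the macrophage lysozyme, averaged 8597 FPKM with RANKL alone and 14120 FPKM with neither agent, and Csf1r, the M-CSF receptor, 265.8 and 508.3 FPKM. The summed level of 10 neutrophil markers was 8.65 to 12.9 FPKM with neither agent, 40.7 to 45.4 with PRDX1 alone, 16.6 to 17.4 with RANKL alone and 35.9 to 39.5 with both, most of it S100a8 and S100a9, while the granule genes Elane and Mpo reached means of at most 1.33 and 1.46 FPKM and Ly6g, the defining surface marker, had at most 8 reads in a library. Mean levels with neither agent and with PRDX1 alone were 0.322 and 1.33 FPKM for Elane, 0.571 and 1.43 for Mpo, 4.15 and 17.2 for S100a8 and 4.31 and 19.5 for S100a9, and no neutrophil marker was at 0 in both libraries of a group. The sum of 10 stromal markers was 8.56 to 11.2 FPKM without PRDX1 and 17.0 to 20.2 FPKM with it, mainly Col1a1 and Col1a2, that of 8 dendritic cell markers 1.59 to 6.33 FPKM, highest with both agents, and that of 9 lymphocyte markers at most 2.13 FPKM, with Cd3e at 0 in every library. The stromal markers Lum and Bglap had at most 2 reads in a library. All of these sums were higher with PRDX1 than without it, and their part in the results below was not tested. In such bulk RNA, fewer cells of a type and less RNA per cell cannot be told apart.

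The 8 genes lie on 8 chromosomes (mm10 coordinates of the transcript the authors listed). They are, on the minus strand, Cd36 (NM_001159556, chr5:17781690-17849792), Msr1 (NM_001113326, chr8:39581700-39642678), Marco (NM_010766, chr1:120474538-120505024), Stab1 (NM_138672, chr14:31139017-31168641) and Cd68 (NM_001291058, chr11:69664213-69666170), and, on the plus strand, Mrc1 (NM_008625, chr2:14229414-14332023), Cd163 (NM_053094, chr6:124304651-124330527) and Adgre1 (NM_001355723, chr17:57358686-57483529). Reads were counted over exons on both strands. Of the 8, Stab1 alone shares exon bases with another annotated gene, 112 of its 7999 with Nt5dc2 on the opposite strand, whose reads there cannot be told from its own.

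For 6 of the 8 genes a RefSeq promoter sequence was at hand (build GRCm38.p6, whose chromosomes match mm10). Shown are the 250 bases before the start of the 4 genes that PRDX1 changed without RANKL, since these went in both directions: Marco (chr1:120505025-120505274, minus strand) rose, and Mrc1 (chr2:14229164-14229413, plus), Cd163 (chr6:124304401-124304650, plus) and Stab1 (chr14:31168642-31168891, minus) fell. Each is written 5′ to 3′ in the direction of its gene, with capitals marking matches to a motif of PU.1, the ETS factor of the macrophage lineage (GAGGAAG, read on both strands).
Marco: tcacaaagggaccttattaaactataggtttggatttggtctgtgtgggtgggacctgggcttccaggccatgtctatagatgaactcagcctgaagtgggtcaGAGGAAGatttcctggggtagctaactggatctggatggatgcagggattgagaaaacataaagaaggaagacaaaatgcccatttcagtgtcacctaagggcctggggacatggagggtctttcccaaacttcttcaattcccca
Mrc1: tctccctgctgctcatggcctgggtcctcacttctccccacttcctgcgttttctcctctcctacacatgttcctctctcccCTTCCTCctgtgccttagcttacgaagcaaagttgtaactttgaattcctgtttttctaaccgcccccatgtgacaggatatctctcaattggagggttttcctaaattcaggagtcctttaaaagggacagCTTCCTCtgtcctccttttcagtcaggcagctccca
Cd163: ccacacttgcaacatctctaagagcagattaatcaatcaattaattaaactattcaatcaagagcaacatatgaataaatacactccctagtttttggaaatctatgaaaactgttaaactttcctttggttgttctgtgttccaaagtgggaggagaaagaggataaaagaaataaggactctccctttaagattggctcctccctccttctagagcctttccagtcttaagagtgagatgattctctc
Stab1: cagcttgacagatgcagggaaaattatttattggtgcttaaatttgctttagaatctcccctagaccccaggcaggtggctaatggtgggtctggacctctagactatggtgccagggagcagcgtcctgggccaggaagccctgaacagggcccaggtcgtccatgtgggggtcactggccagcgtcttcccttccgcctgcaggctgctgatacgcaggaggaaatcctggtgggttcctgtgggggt
Marco held 1 match, 146 to 140 bases before the start, and Mrc1 held 2 on the opposite strand, at 168 to 162 and 36 to 30 bases, whereas Cd163 and Stab1 held none. The same motif occurs in 10.6% of 32851 mouse promoters of this length. Of 4 further motifs searched on both strands, the kappaB form GGANTTTCC (in 1.07% of all promoters) and the E-box CACGTG of MITF and TFE factors (6.02%) occurred in none of the 6 promoters. The AP-1 motif TGANTCA (6.75%) occurred in that of Cd68 at 2 positions, and the nuclear receptor motif AGGTCA (14.0%) in that of Cd36, whose listed start lies 13896 bases from that of the authors' transcript. These are matches of letters in 250 bases and say nothing about binding.

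Across the 4 groups the genes differed in level and in pattern, as the plot of FPKM by library shows. With neither agent, Msr1, Cd68 and Cd36 were the most abundant, at 761.2 ± 69.8, 730.2 ± 10.8 and 563.9 ± 5.74 FPKM (mean ± SD, n = 2), followed by Adgre1 (371.2 ± 19.0), Mrc1 (231.9 ± 23.0) and Stab1 (169.4 ± 1.38), while Marco and Cd163 stood at 6.31 ± 0.17 and 5.65 ± 0.0615 FPKM. Cd36 ranked 90th among all genes in both of these libraries, and Marco between ranks 7511 and 7611. For each gene the 4 groups were ordered with no overlap between neighbouring groups, except that Marco overlapped between PRDX1 alone and both agents and Cd163 between RANKL alone and both. Cd36, Msr1, Cd68 and Adgre1 were highest with PRDX1 alone, and Mrc1, Cd163 and Stab1 were highest with neither agent. RANKL alone was the lowest group for every gene except Marco, which was lowest with neither agent.

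**Figure D1:**
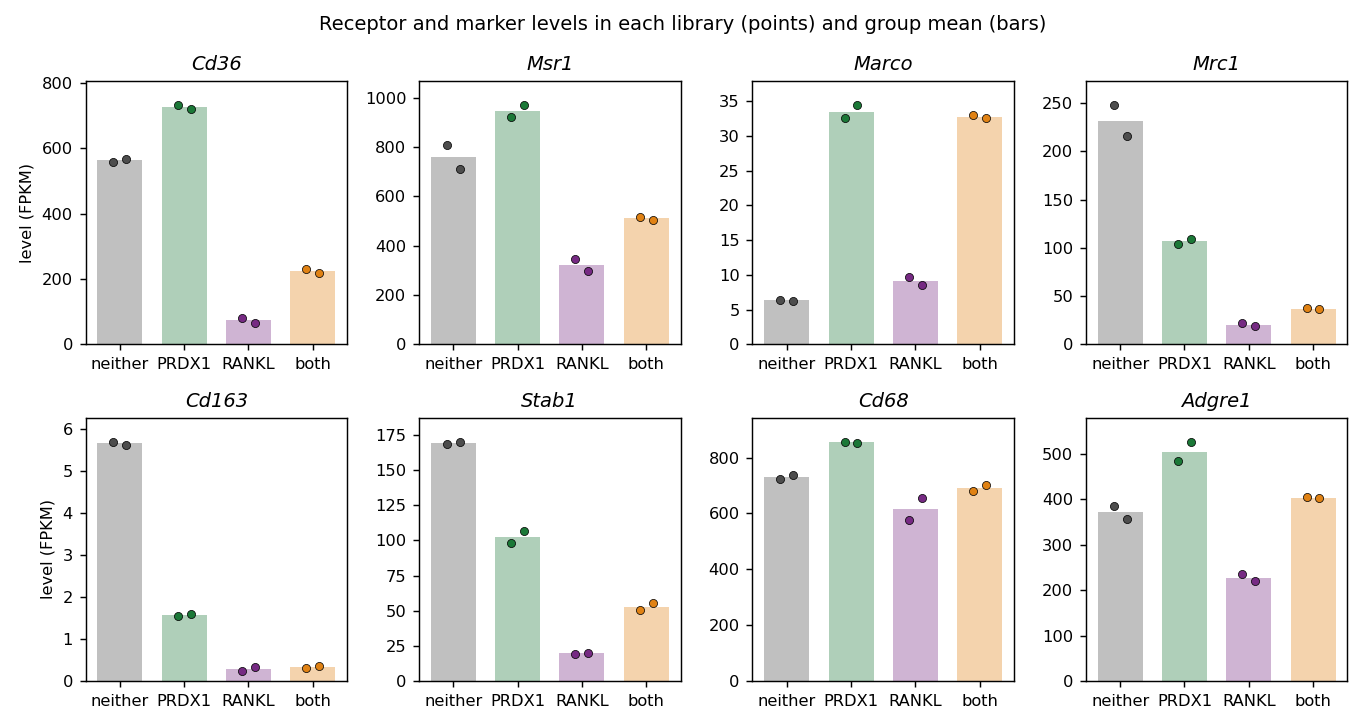
FPKM of each gene (vertical axes, each from 0) in the 4 groups (horizontal axes: neither agent, PRDX1 alone, RANKL alone, both), with a point for each library and a bar for the mean of 2. Marco is high in the 2 PRDX1 groups (32.5 to 34.5 FPKM) and low without PRDX1 (6.19 to 9.65), Mrc1, Cd163 and Stab1 are highest with neither agent, and Cd68 stays between 577.5 and 856.9 FPKM.

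The first comparison asks what extracellular PRDX1 does to precursors kept in M-CSF without RANKL. Marco, a trimeric class A scavenger receptor that binds bacteria and particles, rose 5.31-fold, while Mrc1, Cd163 and Stab1 fell 2.17-fold, 3.58-fold and 1.66-fold. Calls were made with limma on log2(FPKM + 1) at a Benjamini-Hochberg adjusted p under 0.05 and a fold of at least 1.5. With that rule 1 of the 8 genes was higher and 3 were lower, against 3.80% and 1.99% of the 11700 genes tested, and the median log2 fold change was 0.27 over the 8 genes and -0.04 over all genes tested.

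Marco measured 6.430 and 6.190 FPKM with neither agent and 32.534 and 34.474 FPKM with PRDX1 alone. The PRDX1 libraries lay far above the others, a log2 fold change of 2.24 (SE 0.07, adjusted p = 2.6e-08). Mrc1, the mannose receptor (CD206), which takes up mannosylated glycoproteins, measured 248.109 and 215.632 FPKM with neither agent and 103.936 and 109.506 FPKM with PRDX1 alone. Both PRDX1 libraries were the lower ones, with a log2 fold change of -1.11 (SE 0.08, adjusted p = 1.06e-05). Cd163, the receptor that clears haptoglobin-hemoglobin complexes, measured 5.691 and 5.604 FPKM with neither agent and 1.555 and 1.600 FPKM with PRDX1. Its PRDX1 libraries held 27.9% of the control mean, a log2 fold change of -1.37 (SE 0.10, adjusted p = 5.85e-06) on the scale with 1 FPKM added, which understates the change of a gene this low. Stab1 (stabilin-1), an endocytic receptor for acetylated LDL and SPARC, measured 168.417 and 170.374 FPKM with neither agent and 97.907 and 106.637 FPKM with PRDX1. This was a fall of 0.72 on the log2 scale (SE 0.06, adjusted p = 1.94e-05).

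The other 4 genes did not reach the fold of 1.5 with PRDX1 alone, with log2 fold changes of 0.23 to 0.44. Cd36, a class B scavenger receptor for oxidized LDL and long-chain fatty acids, measured 559.802 and 567.921 FPKM with neither agent and 733.185 and 721.255 FPKM with PRDX1, a log2 fold change of 0.37 (95% interval 0.20 to 0.53, adjusted p = 0.00429). Msr1 (SR-A), the macrophage receptor for acetylated LDL, had a log2 fold change of 0.32 (adjusted p = 0.0109). Adgre1, which encodes the F4/80 antigen of mouse macrophages, had 0.44 (adjusted p = 0.000278), and Cd68, a lysosomal glycoprotein of macrophages and osteoclasts, 0.23 (adjusted p = 0.0123). Under quantile normalization Msr1 had 0.18 (adjusted p = 0.125) and Cd68 0.13 (adjusted p = 0.0914). In each of these 4 genes both PRDX1 libraries lay above both libraries with neither agent.

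The second comparison sets cells given RANKL for 48 h, the signal for osteoclast differentiation, against cells in M-CSF alone. Cd163 passed the filter on low values (a mean of at least 0.5 FPKM over all 8 libraries) through the groups without RANKL, where it is high, so it is left out of the counts and medians of comparisons that involve RANKL in 1 group only, and of the interaction. Of the other 7, 5 fell and none rose, against 9.96% lower and 11.8% higher among all genes tested, and the median log2 fold change was -1.24 over the 7 genes and 0.10 over all genes. The falls of these 5 in FPKM spanned 1.63-fold for Adgre1 to 11.5-fold for Mrc1. Mrc1 dropped to 22.021 and 18.476 FPKM with RANKL alone, 8.73% of its level with neither agent (log2 fold change -3.46, SE 0.08, adjusted p = 5.06e-10). Stab1 dropped to 19.176 and 20.009 FPKM, 11.6% of its level with neither agent (log2 fold change -3.05, SE 0.06, adjusted p = 1.48e-10). Cd36 dropped to 79.652 and 66.046 FPKM, from rank 90 to ranks 965 and 1196 among all genes (log2 fold change -2.94, SE 0.07, adjusted p = 5.39e-10). In each of the 3 genes both RANKL libraries lay far below both libraries without it.

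Cd163 went from 740 and 1028 reads with neither agent to 29 and 50 reads with RANKL alone, that is 0.242 and 0.330 FPKM (log2 fold change -2.37, SE 0.10, adjusted p = 1.62e-08). Msr1 fell less, to 345.221 and 298.065 FPKM from 810.601 and 711.873 (log2 fold change -1.24, SE 0.08, adjusted p = 3.39e-07). Adgre1 fell to 235.243 and 220.281 FPKM from 384.677 and 357.757 (log2 fold change -0.70, SE 0.06, adjusted p = 2.46e-06). Cd68 measured 577.536 and 654.535 FPKM against 722.521 and 737.837, a log2 fold change of -0.25 (95% interval -0.37 to -0.12, adjusted p = 0.0031) that was under the fold of 1.5, -0.16 without replicate 1 of the RANKL-only group and -0.49 under quantile normalization. Marco was the one gene of the 8 with a positive log2 fold change, at 9.653 and 8.578 FPKM against 6.430 and 6.190, also under that fold (log2 fold change 0.47, adjusted p = 0.000199).

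The third comparison asks what PRDX1 changed in cells that also received RANKL, where the study looked for a block of differentiation. Here 6 of the 8 genes were higher with PRDX1 and none was lower, against 6.03% and 4.17% of all genes tested, with a median log2 fold change of 0.83 over the 8 genes and -0.06 over all genes. Marco measured 32.976 and 32.632 FPKM with both agents against 9.653 and 8.578 with RANKL alone, 3.60-fold higher (log2 fold change 1.74, SE 0.07, adjusted p = 4.76e-08). Cd36 measured 229.121 and 217.031 FPKM against 79.652 and 66.046, 3.06-fold higher (log2 fold change 1.61, SE 0.07, adjusted p = 1.34e-07). Stab1 measured 50.281 and 55.335 FPKM against 19.176 and 20.009, 2.70-fold higher (log2 fold change 1.38, SE 0.06, adjusted p = 1.03e-07). In each of these genes both libraries with PRDX1 lay above both without it.

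Mrc1 rose as well, to 37.302 and 36.512 FPKM from 22.021 and 18.476 (log2 fold change 0.84, SE 0.08, adjusted p = 3.13e-05), and Adgre1 rose to 405.001 and 402.179 FPKM from 235.243 and 220.281 (log2 fold change 0.82, SE 0.06, adjusted p = 2.08e-06). Msr1 rose to 518.368 and 504.285 FPKM from 345.221 and 298.065 (log2 fold change 0.67, SE 0.08, adjusted p = 6.73e-05). Without replicate 2 of the RANKL-only group the log2 fold change of Msr1 was 0.57, under the fold of 1.5. Cd163 stayed near its lowest level, at 0.311 and 0.364 FPKM (63 and 67 reads) against 0.242 and 0.330, and the groups overlapped (log2 fold change 0.06, 95% interval -0.16 to 0.27, adjusted p = 0.665). Cd68 measured 680.530 and 702.278 FPKM against 577.536 and 654.535, a log2 fold change of 0.17 (95% interval 0.05 to 0.29, adjusted p = 0.0322) that was under the fold of 1.5. This value was 0.08 (adjusted p = 0.173) without replicate 1 of the RANKL-only group and 0.26 without replicate 2, and 0.31 (adjusted p = 0.00122) under quantile normalization.

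**Figure D2:**
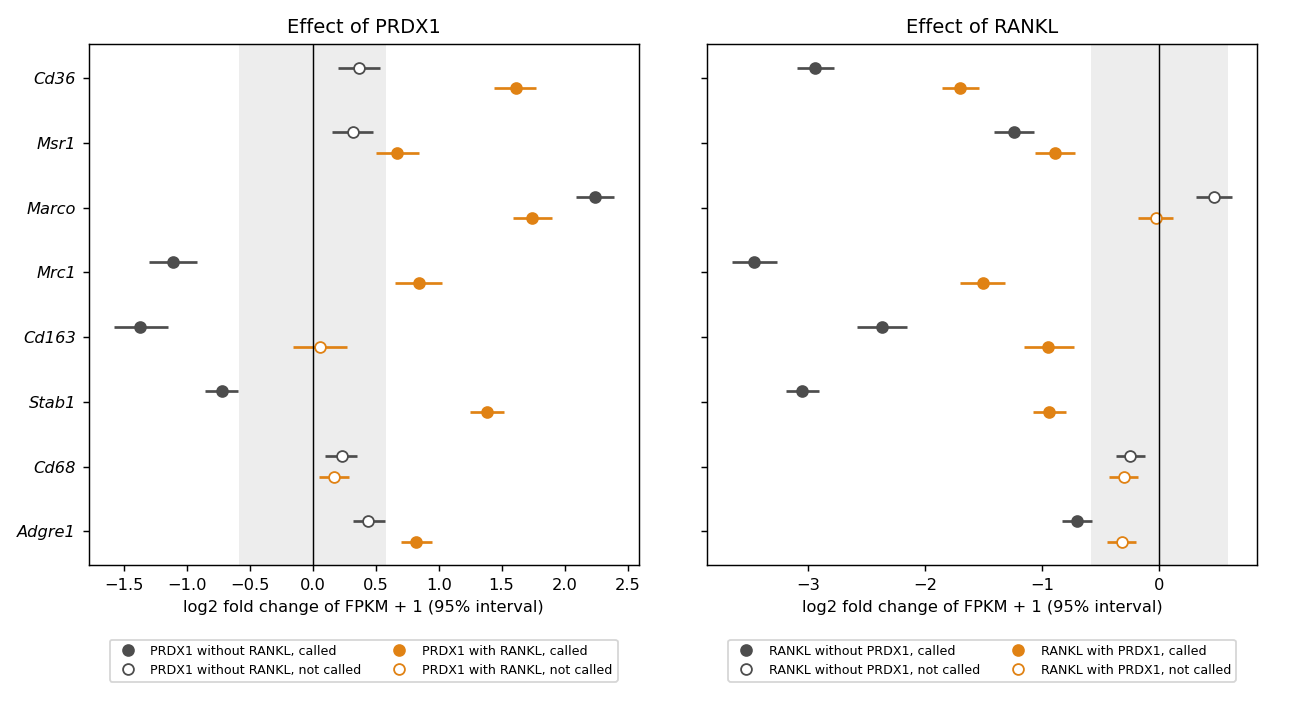
Log2 fold change of FPKM + 1 for each gene (points, with 95% intervals from limma as lines) for PRDX1 without and with RANKL (left) and for RANKL without and with PRDX1 (right), filled where called. The grey band is a change of under 1.5-fold. Mrc1 and Stab1 are on opposite sides of 0 for PRDX1 without RANKL (-1.11 and -0.72) and with RANKL (0.84 and 1.38).

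The rise with PRDX1 left most of these genes short of their level without RANKL. With PRDX1 present in both groups compared, RANKL lowered 4 of the 7 genes other than Cd163 and raised none, against 3.98% lower and 4.52% higher among all genes (median log2 fold change -0.89 over the 7 and 0.07 over all genes). With Cd163, the log2 fold changes of those called were -1.70 for Cd36, -1.51 for Mrc1, -0.95 for Cd163, -0.94 for Stab1 and -0.89 for Msr1 (adjusted p 1.35e-07 to 4.06e-05). The value of Cd163 depends on the 1 FPKM added, and was -1.94 with a pseudocount of 0.1 and -2.21 with limma-voom. Adgre1 (-0.32) and Cd68 (-0.30) stayed under the fold of 1.5. Marco, at 32.8 ± 0.243 FPKM with both agents and 33.5 ± 1.37 FPKM with PRDX1 alone, had a log2 fold change of -0.03 (95% interval -0.18 to 0.12, adjusted p = 0.762), with overlapping libraries.

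Cells with both agents were also compared with cells that had neither. Marco was 5.20-fold higher (log2 fold change 2.21, SE 0.07, adjusted p = 6.62e-09), and Cd36, Mrc1, Cd163 and Stab1 were lower, at 39.6%, 15.9%, 5.98% and 31.2% of their control means, so that, without Cd163, 1 of 7 genes was higher and 3 were lower against 7.50% and 5.34% of all genes. The 7 genes had a median log2 fold change of -0.57, and all genes 0.03. Adgre1 (log2 fold change 0.12, 95% interval -0.00 to 0.25, adjusted p = 0.106) and Cd68 (-0.08, 95% interval -0.20 to 0.04, adjusted p = 0.278) did not pass the threshold. Msr1, at 67.2% of its control mean, was 1.49-fold lower, just under the fold required (log2 fold change -0.57, adjusted p = 0.000178), and passed it without replicate 2 of the group with neither agent (-0.66) and without replicate 1 of the group with both agents (-0.59).

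Whether the effect of PRDX1 differed with RANKL was tested directly as the interaction, the PRDX1 effect with RANKL minus that without it. Without Cd163, it passed an adjusted p of 0.05 for 6 of 7 genes, positive for 5 and negative for 1, against 11.2% and 12.0% of all genes, with a median of 0.38 over the 7 genes and -0.01 over all. With no filter on low values the positive calls were 3, those of Msr1 (adjusted p = 0.302) and Adgre1 (0.102) being lost. Stab1 had 2.11 (SE 0.09, adjusted p = 3.29e-07) and Mrc1 1.95 (SE 0.12, adjusted p = 3.81e-06), and these 2 genes fell with PRDX1 when RANKL was absent and rose with it when RANKL was present. Cd163 had 1.42 (SE 0.13, adjusted p = 5.75e-05), the difference between a fall without RANKL and no detectable change with it. Its level with RANKL alone was already at 29 to 50 reads, and the part of that low level in this value was not tested. Cd36 had 1.24 (SE 0.10, adjusted p = 2.73e-05) and Adgre1 0.38 (SE 0.08, adjusted p = 0.00683), both with larger rises in the presence of RANKL. Msr1 had 0.35 (SE 0.11, adjusted p = 0.0381), a call that was lost without any one of 6 libraries (adjusted p 0.0607 to 0.121): replicate 1 with neither agent, replicate 2 with RANKL alone, and each library with PRDX1. Under quantile normalization it was 0.61 (adjusted p = 0.00348). Marco had -0.50 (SE 0.10, adjusted p = 0.00481), since its level with PRDX1 was alike in both settings and its level without PRDX1 was higher with RANKL, and Cd68 had -0.06 (95% interval -0.23 to 0.12, adjusted p = 0.667).

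These changes altered the total and the make-up of the set. Summed over the 8 genes, the level was 2906.2 and 2773.2 FPKM with neither agent, 3230.7 and 3323.0 FPKM with PRDX1 alone, 1288.7 and 1286.3 FPKM with RANKL alone and 1953.9 and 1950.6 FPKM with both. Cd68 made up 25.7% of the sum with neither agent and 47.8% with RANKL alone, with 26.1% for PRDX1 alone and 35.4% for both. Cd36 went from 19.9% with neither agent to 5.65% with RANKL alone, and Msr1 stayed at 25.0% to 28.9% in all 4 groups. Ratios of FPKM within a library, chosen after the values were seen, do not depend on the scaling between libraries. The ratio of Marco to Mrc1 was 0.0259 and 0.0287 with neither agent, 0.313 and 0.315 with PRDX1 alone, 0.438 and 0.464 with RANKL alone and 0.884 and 0.894 with both. The ratio of Mrc1 to Stab1 was 1.47 and 1.27 with neither agent, 1.06 and 1.03 with PRDX1 alone, 1.15 and 0.923 with RANKL alone and 0.742 and 0.66 with both, lowest with both agents and highest with neither. The ratio of Msr1 to Cd36 was 1.25 to 1.45 in the 4 libraries without RANKL, 4.33 and 4.51 with RANKL alone, and 2.26 and 2.32 with both.

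**Figure D3:**
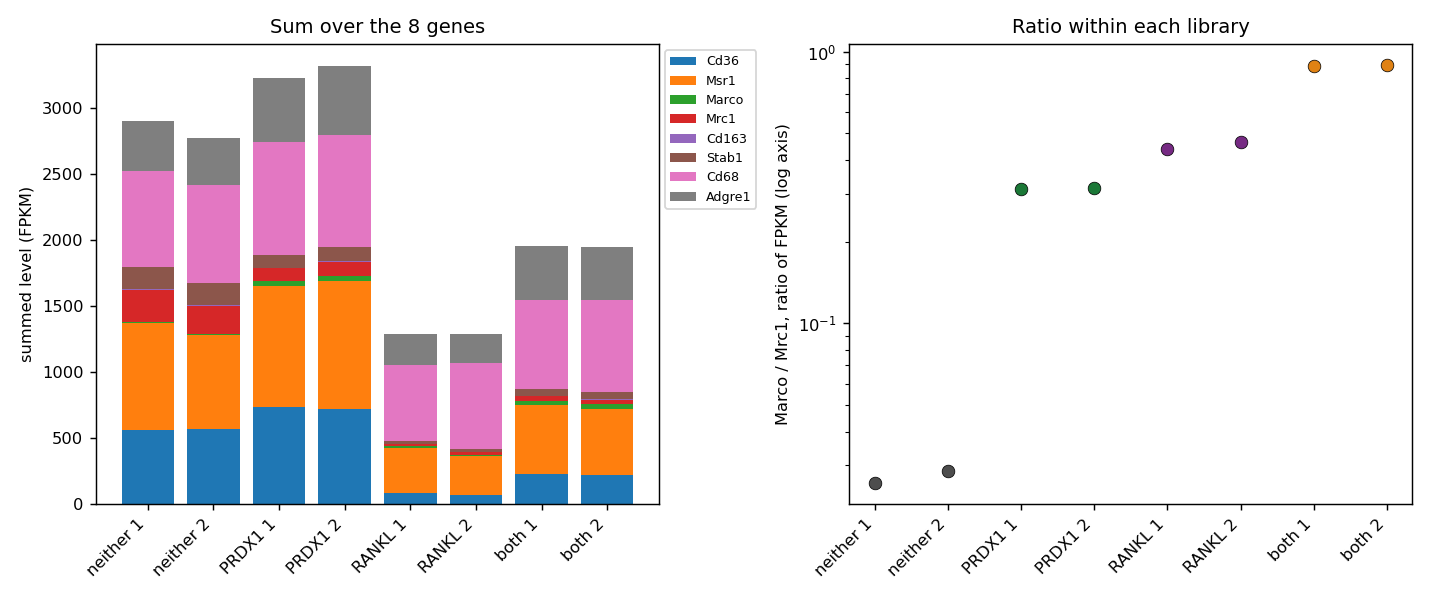
Left, FPKM of the 8 genes stacked for each library, from 1286.3 FPKM with RANKL alone to 3323.0 FPKM with PRDX1 alone. Right, the ratio of Marco to Mrc1 FPKM within each library on a log axis, from 0.0259 with neither agent to 0.894 with both.

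Over the 8 libraries, which are 2 from each of 4 groups, Cd36 and Msr1 had a Pearson r of 0.99 on the log2(FPKM + 1) scale, Mrc1 and Stab1 0.97, and Mrc1 and Cd163 0.95, while Marco had between -0.48 (with Cd163) and 0.65 (with Adgre1). Such values mostly reflect the 4 group means and are given as a description. Among 3889 genes whose group means ranged at least 1.5-fold, the closest to Marco were Cfb, complement factor B (r = 0.996), and B2m and H2-L of MHC class I (r = 0.993 each). Cfb averaged 1.45 FPKM with neither agent, 46.4 with PRDX1 alone, 4.56 with RANKL alone and 46.1 with both. Closest to Mrc1 were Sort1, the sorting receptor sortilin, the CD300 family receptor Cd300ld and Phactr2 (r = 0.997 to 1.0), and closest to Cd163 were Unc119, Rasgrp3 and the nucleotide receptor P2ry13 (r = 0.996 to 0.999). For Stab1 they were the nucleotide receptor P2ry6, Nrros and the lysosomal enzyme gene Galc (r = 0.997 to 0.999), and P2ry6 averaged 136.0, 106.0, 43.5 and 73.1 FPKM in the same order of groups. Cd36 was closest to the endosomal RNA sensor Tlr8, Etv1 and Smim3 (r = 0.996 each), Msr1 to Syngr1, Fam45a and Ms4a4a (r = 0.996 to 0.997), and Adgre1 to Ms4a6d, the complement C3a receptor C3ar1 and the glycolytic regulator Pfkfb3 (r = 0.995 each). Group means of Cd68 ranged by less than 1.5-fold, so it was left out.

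Of 20 other scavenger receptors 11 were tested. PRDX1 without RANKL raised 4 of them and lowered 1, RANKL without PRDX1 raised 2 and lowered 5, and PRDX1 with RANKL raised 4 and lowered none. Over all genes tested, the shares higher and lower were 3.80% and 1.99%, 11.8% and 9.96%, and 6.03% and 4.17% for these comparisons, so the 2 of 11 raised by RANKL were near the share over all genes. Cxcl16, a transmembrane chemokine that binds oxidized LDL, rose with each agent alone, from 43.5 ± 0.607 FPKM with neither to 104.5 ± 1.57 with PRDX1 and 75.8 ± 0.549 with RANKL, and was highest with both (130.4 ± 0.402). Cd14, the LPS co-receptor, averaged 460.6, 404.0, 146.5 and 323.5 FPKM with neither, PRDX1, RANKL and both. It was thus lower with RANKL alone (log2 fold change -1.65, adjusted p = 4.4e-10) and higher with PRDX1 in the presence of RANKL (1.14, adjusted p = 2.02e-08). Clec7a (dectin-1), the beta-glucan receptor, rose with PRDX1 in both settings (log2 fold changes 1.15 and 1.67). Cd5l, a secreted scavenger protein that promotes macrophage survival, rose with PRDX1 alone from 5.00 to 11.4 FPKM and fell with RANKL alone to 0.283 FPKM. It passed the filter through the other groups. Its place among the 5 lowered by RANKL and the 4 raised by PRDX1 with RANKL is therefore no support for those counts.

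Mrc1 belongs to the C-type lectins, and of 19 other members 11 were tested. Their counts were 3 higher and none lower for PRDX1 without RANKL (all genes 3.80% and 1.99%), 5 higher and 2 lower for RANKL without PRDX1 (all genes 11.8% and 9.96%), and 3 higher and none lower for PRDX1 with RANKL (all genes 6.03% and 4.17%). The median log2 fold change under RANKL alone was 0.09, and -0.07 to 0.59 over the alternatives (0.59 with a filter of 1 FPKM, which leaves 9 of them), where Mrc1 had -3.46. Leaving out replicate 1 with neither agent left 1 lower, and leaving out replicate 2 gave 3. Clec4n (dectin-2), which binds fungal mannans, rose with PRDX1 from 40.7 to 91.0 FPKM without RANKL and from 43.0 to 92.0 FPKM with it (adjusted p = 8.8e-06 and 5.84e-06), and Clec4a1 rose with either agent alone, from 33.8 to 82.5 and 81.2 FPKM. Clec4e (Mincle), a receptor for mycobacterial glycolipid, rose with PRDX1 in the presence of RANKL (log2 fold change 1.08, adjusted p = 5.19e-07).

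A list of 28 other macrophage markers, which shares Cd14 with the other scavenger receptors, had 25 tested members. RANKL without PRDX1 lowered 20 of them and raised 1, with a median log2 fold change of -1.51, and PRDX1 with RANKL raised 15 and lowered none, with a median of 0.93. Over all genes tested, RANKL lowered 9.96% and raised 11.8% (median 0.10), and PRDX1 with RANKL raised 6.03% and lowered 4.17% (median -0.06). The 1 raised by RANKL, Adgre4, passed the filter through the groups with RANKL. The complement C1q chains, Fcgr1 (the high-affinity IgG receptor CD64), Siglec1 (sialoadhesin) and Folr2 (folate receptor beta) belong to this list. Fcgr1 averaged 112.8 FPKM with neither agent, 161.9 with PRDX1 alone, 8.49 with RANKL alone and 51.2 with both, a log2 fold change of 2.46 (SE 0.06, adjusted p = 5.04e-09) for PRDX1 in the presence of RANKL. Siglec1 followed with 75.4, 143.1, 8.41 and 59.5 FPKM in that order, and C1qb fell 16.8-fold with RANKL alone. Without RANKL, PRDX1 raised 6 of the 25 and lowered 1, Cx3cr1, the fractalkine receptor, which went from 97.4 to 49.6 FPKM (log2 fold change -0.96, adjusted p = 7.11e-06). The shares over all genes were 3.80% and 1.99%, and 1 of 25 is near the latter.

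Of 15 transcription factors that shape the macrophage state, RANKL alone lowered 8 and raised 4, and PRDX1 with RANKL raised 11 and lowered none. Over all genes the shares lower and higher were 9.96% and 11.8% for RANKL, and those higher and lower 6.03% and 4.17% for PRDX1 with RANKL. Maf, known in macrophages for holding the mature resident program, averaged 89.3, 73.4, 16.5 and 40.3 FPKM with neither, PRDX1, RANKL and both, and Irf8, a repressor of osteoclast formation, averaged 49.0, 59.5, 7.75 and 24.7 FPKM. Nr1h3 (LXR alpha), a sterol-sensing receptor, rose with each agent, from 1.98 FPKM with neither to 7.32 with PRDX1, 13.8 with RANKL and 22.3 with both. Spi1, which encodes PU.1, averaged 182.5, 204.2, 327.6 and 262.0 FPKM in the same order. RANKL alone raised it (log2 fold change 0.84, adjusted p = 3.86e-06). Klf4 rose with RANKL alone from 3.11 to 11.3 FPKM, and Tfec from 17.0 to 26.45 (log2 fold change 0.61, and 0.53 under quantile normalization). PRDX1 without RANKL raised 6 of the 15 and lowered none (all genes 3.80% and 1.99%), with Cebpa rising from 36.5 to 64.8 FPKM.

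Among 15 genes that handle the lipid CD36 takes up, 14 were tested. PRDX1 raised 6 without RANKL and 5 with it, and lowered none in either setting, while RANKL alone raised 3 and lowered 3 (with 1 or 2 raised where libraries were rescaled to each other by quantiles or by the upper quartile). Over all genes, the shares higher and lower were 3.80% and 1.99% for PRDX1 without RANKL, 6.03% and 4.17% for PRDX1 with it, and 11.8% and 9.96% for RANKL alone. Fabp4, the fatty acid binding protein of adipocytes and macrophages, rose with PRDX1 in both settings (log2 fold changes 1.19 and 1.54, adjusted p = 6.61e-05 and 5.5e-06), and Plin2, which coats lipid droplets, rose by 0.96 and 0.81. Abca1, the cholesterol exporter, rose only in the test with RANKL, from 3.51 to 7.94 FPKM (log2 fold change 0.99, adjusted p = 3.07e-05), and without RANKL had -0.08 (adjusted p = 0.574), and its interaction was 1.08 (adjusted p = 0.000464).

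For osteoclast genes no count is given, since 5 of the 12 tested of 13 were under 0.5 FPKM with neither agent and passed the filter on low values through other groups, and all 5 are highest with RANKL alone. Ctsk (cathepsin K), the collagen-degrading protease and 1 of those 5, averaged 168.3 ± 1.26 FPKM with RANKL alone and 8.29 ± 0.238 FPKM with both. Acp5, which encodes the TRAP enzyme, averaged 23.6 ± 0.802 FPKM with neither agent, 53.7 ± 0.255 with PRDX1 alone, 1105 ± 45.2 with RANKL alone and 161.8 ± 5.28 with both. Acp5 thus rose with RANKL and with PRDX1 alone, and was lower with PRDX1 in the presence of RANKL (log2 fold change -2.76, adjusted p = 1.39e-09), as were Atp6v0d2, a proton pump subunit (-2.69), and Dcstamp, a cell fusion receptor (-2.34). Other members of the list differed from Acp5. Itgb3, the integrin beta 3 chain, fell with PRDX1 alone, from 1.88 to 0.662 FPKM (log2 fold change -0.79, adjusted p = 0.000132), and Ostm1, a partner of the chloride transporter Clcn7, had -0.21 with RANKL alone, under the fold of 1.5. Clcn7 and the proton pump subunit Tcirg1 had -0.16 and -0.11 for PRDX1 in the presence of RANKL, and neither passed the threshold. The plot of log2 fold changes by list sets the groups of genes beside each other, and its 3 comparisons share libraries.

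**Figure D4:**
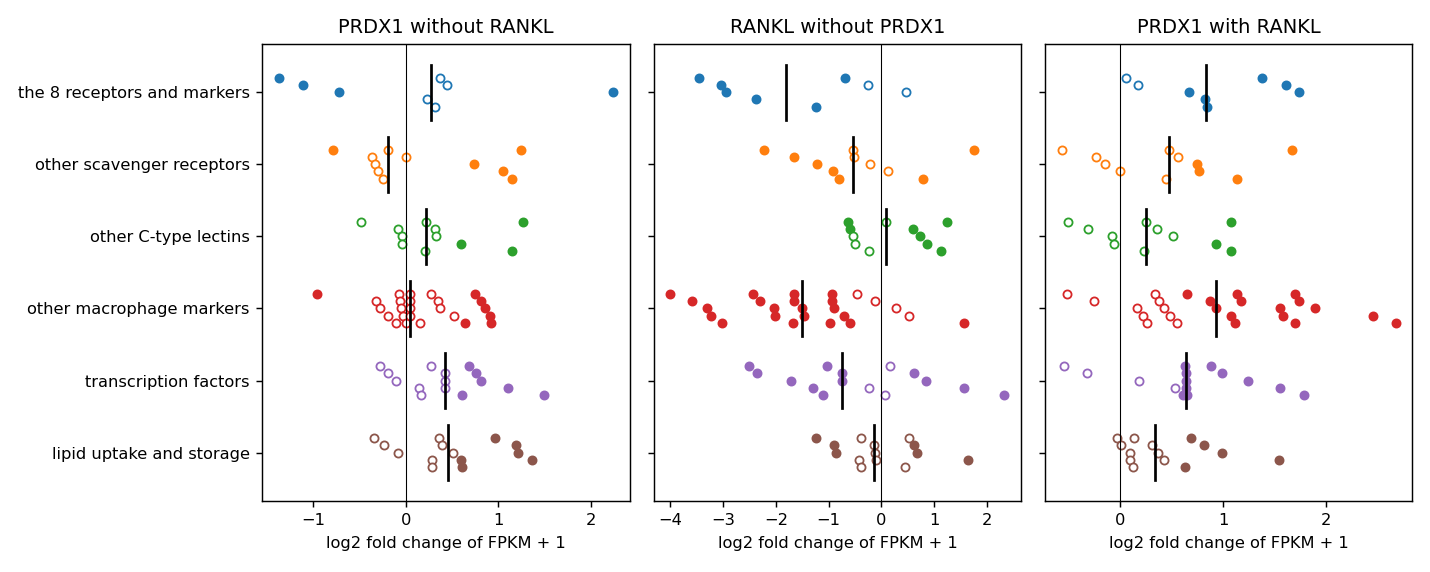
Log2 fold change of FPKM + 1 for every tested gene of the 8 receptors and markers and of 5 other lists (rows), filled where called, with a black line at the median of each list. With RANKL alone (middle) the line of the first row includes Cd163, without which it lies at -1.24, and other macrophage markers have -1.51. For PRDX1 with RANKL (right) the medians are 0.83 and 0.93.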

How the data were processed

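The deposited table holds FPKM per gene and library, which the authors made by aligning paired reads with HISAT2 (version not given in the sources used here) to mm10 and counting exon reads on both strands with HOMER, one transcript per gene. Every low value was a whole multiple of what 1 read is worth (100.0% of genes checked, tolerance 0.1), so read numbers were recovered. Libraries held 27284398 to 46171429 reads in all, and the precision of a value rests on its reads and on 2 libraries per group.

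Groups came from the sample labels. Genes with a mean of at least 0.5 FPKM over the 8 libraries (11700 of 25124) were tested with limma 3.58.1 in R 4.3.3 on log2(FPKM + 1), with 1 mean per group, 4 residual degrees of freedom, an intensity trend and Benjamini-Hochberg adjustment over all genes tested. A call needed an adjusted p under 0.05 and a fold of at least 1.5, and the interaction the adjusted p alone. FPKM is no count, so the test reported is on FPKM, and limma-voom on the recovered reads served as an alternative. An exact permutation test of 2 against 2 libraries cannot reach 0.05 and was not used. Fold changes in words are ratios of mean FPKM, while log2 fold changes are on the log2(FPKM + 1) scale.

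The 8 genes and the other lists were chosen with earlier results of these data known. Named from each other list were up to 3 called genes with the largest change per comparison, from which the text takes some. Named outside that rule were Adgre4, Spi1, Tfec, Itgb3, Ostm1, Clcn7 and Tcirg1, which differed from other named genes of their list, and markers used to check the cells. For each receptor the 3 genes with the highest Pearson r were named. Alternatives were a pseudocount of 0.1, other filters (none, or 1 FPKM), quantile and upper quartile scaling, a replicate block, no intensity trend, only the libraries compared, limma-voom on recovered reads, and leaving out each library. Figures were drawn with matplotlib. Motifs were searched in the 250 bases before each RefSeq start.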

Additional observations from a re-analysis of the deposited data

Results flagged for a closer look

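The effect of PRDX1 on every gene but Cd68 passed the interaction term of limma between cells without and with RANKL, which is what drew attention to them. Without Cd163, the term was positive for 5 of 7 genes and negative for 1, against 11.2% and 12.0% of all genes tested. With no filter on low values it was positive for 3, without Msr1 and Adgre1, and negative for 1, against 745 and 821 of all 25124 genes. The call of Msr1 was also lost without any one of 6 libraries. The difference in log2 fold change, with RANKL minus without, was 2.11 for Stab1, 1.95 for Mrc1, 1.42 for Cd163, 1.24 for Cd36, 0.38 for Adgre1, 0.35 for Msr1 and -0.5 for Marco. For Stab1 and Mrc1 the direction turned, both PRDX1 libraries lying below both libraries with neither agent, and both libraries with PRDX1 and RANKL lying above both with RANKL alone. For Cd163 the level with RANKL was 0.242 to 0.364 FPKM in every library, close to the bottom of the measured range, and it passed the filter through the groups without RANKL, so its value is no support for the others. With 2 libraries per group, no search for single outlying libraries was made.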

How the results depend on the processing

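The counts of the 8 receptors called in each direction stayed within 1.5 times under every alternative run, but without Cd163 the positive interactions went from 5 to 3 with no filter, and of 808 alternative values for single receptors 790 kept their direction and side of the threshold, 10 lost a call, 4 gained one and 4 changed sign. The sign changes all concern values near 0: Cd163 for PRDX1 with RANKL was -0.08 under quantile normalization, Marco for RANKL with PRDX1 ranged from -0.07 to 0.01 over the fits that left out 1 library (0.01 without PRDX1 + no RANKL replicate 2), and the interaction of Cd68 was 0.18 under quantile normalization and -0.15 to 0.03 over those fits (0.03 without no PRDX1 + RANKL replicate 2). The call of Msr1 for both agents against neither was gained under quantile normalization (-0.63) and upper quartile scaling (-0.59). Its interaction rose to 0.61 under quantile normalization, and that call was lost without a filter (adjusted p = 0.302) and without the intensity trend (0.0948), as was that of Adgre1 without a filter (0.102). The cause of these changes was not tested. Counts in the other lists moved too: over the alternatives, PRDX1 with RANKL raised 14 to 17 of the other macrophage markers and 9 to 11 of the transcription factors and lowered at most 1 of each, and RANKL alone lowered 19 to 20 of those markers and 1 to 4 of the other C-type lectins. The markers, transcription factors and lectins had 25, 15 and 11 tested members. Over all genes, PRDX1 with RANKL raised 666 and lowered 474 of 25124 with no filter, and raised 960 and lowered 649 of 11700 with limma-voom. RANKL alone lowered 1137 of 25124 with no filter and 1406 of 11700 with limma-voom. Labels number the replicates 1 and 2 in every group, but deviations of same-numbered libraries correlated at only 0.008 to 0.096, so the numbers were not taken as pairs. The command line in the file's header lists run directories whose numbers differ in part from those replicate numbers. With a replicate block, 705 genes were higher and 487 lower for PRDX1 with RANKL, against 705 and 488, and the interaction passed for 1418 genes upward and 1530 downward, against 1307 and 1400. No receptor call changed with the block. Over all genes, limma-voom on recovered reads called 396 genes lower for PRDX1 without RANKL (233 as reported) and 794 higher for RANKL with PRDX1 (529), and a pseudocount of 0.1 called 360 lower for PRDX1 without RANKL. The interaction passed for 745 genes upward and 821 downward with no filter, and for 896 downward without PRDX1 + RANKL replicate 2. Depth limits Cd163 most, at 29 to 67 reads per library with RANKL, and its log2 fold change for RANKL alone was -3.91 with a pseudocount of 0.1 and -4.26 with limma-voom, against -2.37.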
